A study of Mus musculus with 8 samples.

Results

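The 40 genes described here make or use the enzymes that remove superoxide and peroxides, keep the thioredoxin and glutathione systems reduced, sense oxidative stress through NRF2, or produce superoxide and hydrogen peroxide as NADPH oxidases. They were chosen by gene symbol for these known roles, with earlier results of these data known. All 40 were found among the 18540 genes counted in mouse wound skin, and all 40 were among the 15147 genes tested. In total, 8 samples were sequenced. The control group held the samples numbered 1, 2, 3 and 5 and was injected with PBS. The Z1C2Z group held the samples numbered 1, 2, 4 and 5 and was treated for 15 days with Z1C2Z, a zinc peroxide and cerium oxide composite in the zeolitic framework ZIF-8, in its form with the higher cerium oxide ratio. Cerium oxide is known to scavenge reactive oxygen species and zinc peroxide to release peroxide, and the comparison asks how transcripts of the tissue's own antioxidant genes differed between treated and control wounds. The labels and methods do not give the strain, diabetic state or age of the sequenced mice, and they do not tie samples to animals. The study made a pair of wounds on each animal, so some samples may share a mouse, and the p-values measure only the spread between these samples.

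Superoxide dismutases turn superoxide into hydrogen peroxide, which catalase, glutathione peroxidases and peroxiredoxins then remove. Thioredoxin and glutathione supply electrons to the peroxiredoxins and glutathione peroxidases and are themselves reduced again with NADPH. NRF2, encoded by Nfe2l2, is a transcription factor that KEAP1 marks for degradation in unstressed cells. When KEAP1 is oxidized or modified, NRF2 accumulates as a protein and switches on genes of glutathione synthesis, thioredoxin recycling and heme breakdown through antioxidant response elements. In skin these systems act in keratinocytes, fibroblasts and the leukocytes of a wound, and the NADPH oxidases of phagocytes and keratinocytes are sources of the oxidants.

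Among the 40 genes, 1 was higher and 2 were lower in Z1C2Z wounds than in control wounds at an adjusted p under 0.05 in edgeR's quasi-likelihood test (Benjamini-Hochberg adjustment over all genes tested). Gclc, for the catalytic subunit of glutamate-cysteine ligase, rose 1.68-fold. Nfe2l2 fell 1.39-fold, and Duox1, for an epithelial NADPH oxidase that releases hydrogen peroxide, fell 2.04-fold. The 3 genes are 7.5% of the members, beside 8.13% of all genes tested (4.28% higher and 3.85% lower), so the share called was close to that of the transcriptome. Scaling by library totals alone gave 1 higher and 1 lower member, and over all genes 972 higher and 385 lower in place of 648 and 583. Only Duox1 of the 3 passed a fold change of 2, beside 2.15% of all genes tested that were called over 2-fold higher and 1.25% over 2-fold lower. In bulk tissue, fewer cells of a type and less RNA per cell cannot be told apart, which holds for every value below.

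More members lay lower than higher. The log2 fold change was under 0 for 27 of the 40 genes, where 48.9% of all genes tested were under 0, and their median log2 fold change was -0.19, beside 0.01 for all genes. The 27 include all 6 NADPH oxidase members, which make oxidants. With library totals alone, 23 of the 40 were under 0 and the median was -0.09, while the median of all genes moved to 0.10. Fits that left out 1 sample had 25 to 31 under 0, with medians of -0.24 (without control-1) to -0.14 (without control-5). The 4 Z1C2Z samples did not overlap the 4 control samples for 12 of the 40 members (30%, beside 17.3% of all genes tested). Of these, Gclc and Gclm were higher in every Z1C2Z sample (8.45% of all genes were). The other 10 were lower in every Z1C2Z sample (8.82% of all genes were), and they were Sod2, Sod3, Gpx1, Gpx7, Gpx8, Prdx3, Prdx4, Srxn1, Nfe2l2 and Duox1. At an unadjusted p under 0.05 there were 4 higher and 13 lower members, beside 28% of all genes in either direction. DESeq2, run as an alternative, called 2 members higher and 10 lower, where it called 18.1% of all genes (7.96% higher and 10.2% lower).

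**Figure D1:**
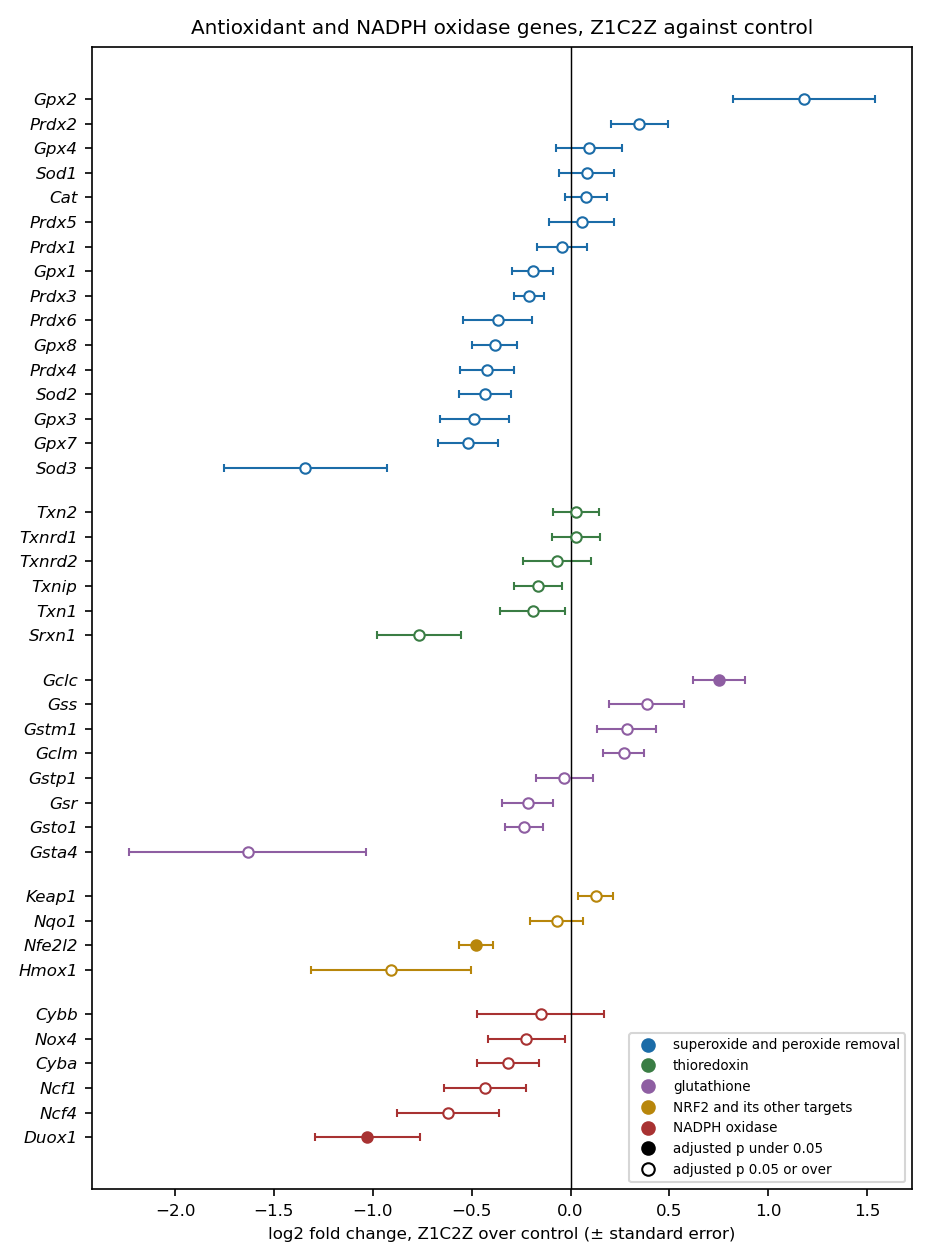
Log2 fold change of Z1C2Z over control wounds (horizontal axis, with its standard error as bars) for each of the 40 genes, grouped by role and ordered by value. Filled points mark the 3 genes with an adjusted p under 0.05 in edgeR's quasi-likelihood test, Gclc to the right of 0 and Nfe2l2 and Duox1 to the left, and 27 of the 40 points lie to the left of 0.

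The samples of each group were not alike, and this bears on the members. Totals were between 28856790 and 38974888 counts per sample, and the lowest count of any member in any sample was 53 (Gpx2, control-1). Z1C2Z-2 and Z1C2Z-4 stood together. They were the lowest treated pair for 11 members and the highest treated pair for 17, beside 31.7% and 32.5% of all genes tested. Control-5 was the highest control sample for 23 of the 40 members, beside 26% of all genes. Markers of hair shaft and matrix, summed over 10 genes, lay between 503 and 3093 CPM (the usual unit of reads scaled to equal library size, here after TMM normalization) in control and between 3828 and 13462 CPM in Z1C2Z wounds, and 9 of the 10 were called higher. Their highest genes were Tchh, at 670 ± 609 CPM in control and 4120 ± 1781 CPM in Z1C2Z wounds (SD, n = 4), and Krt71, at 394 ± 314 and 2200 ± 999 CPM. Keratinocyte markers (8 genes, led by Krt10 and Krt1) summed to 12144 to 14909 CPM in control and 13865 to 19259 CPM in Z1C2Z samples. Dermal fibroblast markers (6 genes, led by Col3a1 and Col1a2) summed to 54834 to 78015 and 43054 to 60493 CPM. The leukocyte sums are given with the NADPH oxidase genes. Markers of skeletal muscle (8 genes, led by Acta1 and Myh1) summed to 3433 to 6281 and 2863 to 3288 CPM, of adipocytes (6 genes, led by Fabp4 and Adipoq) to 484 to 584 and 366 to 732, and of sebocytes (6 genes, led by Fa2h and Elovl3) to 325 to 683 and 443 to 656. Erythroid markers (7 genes, led by Hbb-bs and Hba-a1) summed to 197 to 363 and 86.3 to 211 CPM, and endothelial markers (5 genes, led by Pecam1 and Cdh5) to 276 to 768 and 227 to 448 CPM. No listed marker was at 0 in every sample. The part of these cell types in the members' values was not tested.

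Per kilobase of annotated exon, the most abundant members in control wounds were Gpx3, the secreted glutathione peroxidase, at a level of 375 CPM per kb, Prdx1, the main cytosolic peroxiredoxin, at 298 and Gpx1, the main cytosolic glutathione peroxidase, at 228. In Z1C2Z wounds Prdx1 came first at 289 CPM per kb and Gpx3 followed at 268. The lowest members in control wounds were Txnrd2, the mitochondrial thioredoxin reductase, at 1.48 CPM per kb, Gpx2, the epithelial glutathione peroxidase, at 2.91 and Duox1 at 3.77. Sod3 went from rank 28 to rank 35 of 40, and Gsta4 from rank 13 to rank 22. Gclc went from rank 30 to rank 24. All other levels below are CPM, which are not per length and serve to compare groups.

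Of NRF2, its sensor and a pair of its best known targets, 1 gene of 4 fell and 0 rose, beside 3.85% and 4.28% of all genes tested. Nfe2l2 (Entrez 18024) had 226, 199, 213 and 240 CPM in the control samples, in the order of the numbers given above, and 161, 153, 150 and 166 CPM in the Z1C2Z samples, in the same way. Every treated sample lay below every control sample, and the samples within a group were close together, with a coefficient of variation of 8.08% in control and 4.64% in Z1C2Z wounds. The log2 fold change was -0.48 (SE 0.09, edgeR adjusted p = 0.0299). This call was lost without Z1C2Z-1 (adjusted p = 0.0662), Z1C2Z-2 (0.0893), Z1C2Z-4 (0.0876) or control-5 (0.0778), with log2 fold changes of -0.43 to -0.48. In each of these edgeR fits 0 of all genes tested were called. The same holds for every call below that was lost without any of these samples. Over all alternatives the adjusted p of Nfe2l2 was between 1.19e-05 and 0.280.

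Keap1 (Entrez 50868), for the protein that holds NRF2 down, had 40.1 ± 3.31 CPM in control and 43.8 ± 2.26 CPM in Z1C2Z wounds (SD, n = 4, log2 fold change 0.13, edgeR adjusted p = 0.374). The ratio of Nfe2l2 to Keap1 CPM was 6.32, 4.62, 5.43 and 5.68 in the control samples and 3.91, 3.40, 3.25 and 3.88 in the Z1C2Z samples. It was 5.51 ± 0.703 in control and 3.61 ± 0.336 in Z1C2Z wounds (SD, n = 4), and the groups did not overlap. Nfe2l2 alone already did not overlap and Keap1 differed little, so the ratio is no separate support. Nqo1 (Entrez 18104), for the quinone reductase that is often read as a sign of NRF2 activity, was at 9.37 ± 1.17 and 8.94 ± 0.968 CPM (log2 fold change -0.07, adjusted p = 0.771). With library totals alone its log2 fold change was 0.03.

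Hmox1 (Entrez 15368), for the heme oxygenase that breaks down free heme and is also held in check by BACH1, had 160, 202, 158 and 480 CPM in control wounds. The Z1C2Z samples had 158, 92.2, 89.1 and 194 CPM. Control-5 stood far above the other control samples, and Z1C2Z-1 and Z1C2Z-5 came up to the level of the latter. Its log2 fold change of -0.91 (SE 0.41) did not pass the test (edgeR adjusted p = 0.181).

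Short promoter sequences show where these genes carry the letters of the antioxidant response element. The core motif TGACNNNGC was searched on both strands in RefSeq windows from 250 bases before to 50 bases after the transcription start (GRCm38.p6), which were matched by symbol for 33 of the 40 members. It occurred in 6 of the 33 (18.2%), beside 14% of the 27025 windows of all genes and 16.8% of the 11953 windows of genes tested here, so the members were close to the background. The 6 sites are shown because they let a reader set the motif beside the values, each with 10 bases to either side, on the strand that carries the motif and with the motif in capitals.
Gclm: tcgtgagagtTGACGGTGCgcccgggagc
Nfe2l2: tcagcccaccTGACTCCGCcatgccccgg
Prdx1: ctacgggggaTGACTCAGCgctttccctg
Sod1: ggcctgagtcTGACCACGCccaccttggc
Srxn1: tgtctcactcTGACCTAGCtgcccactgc
Txnrd1: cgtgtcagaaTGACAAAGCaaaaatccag

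These sites lie at chr3:122245413-122245441 (Gclm), chr2:75704885-75704913 (Nfe2l2), chr4:116685456-116685484 (Prdx1), chr16:90220696-90220724 (Sod1), chr2:152105542-152105570 (Srxn1) and chr10:82859104-82859132 (Txnrd1), all read on the minus strand. Only in Nfe2l2 is the minus strand also the gene's own. Counted from the start site, the motif begins at -134 in Gclm, -240 in Nfe2l2, -133 in Prdx1, -56 in Sod1, 28 in Srxn1 and -92 in Txnrd1. The genes that carried it did not share a direction. Gclm was higher and Nfe2l2 and Srxn1 were lower in every Z1C2Z sample, while Prdx1, Sod1 and Txnrd1 overlapped between groups with log2 fold changes of -0.04, 0.08 and 0.03. The windows for Gclc, Hmox1, Sod3, Prdx6, Gsr, Gsta4 and Ncf4 were not matched.

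The member that rose belongs to glutathione synthesis. Gclc (Entrez 14629), for the subunit that joins glutamate to cysteine and sets the pace of glutathione synthesis, had 47.3, 48.5, 48.1 and 45.3 CPM in control wounds. The Z1C2Z samples had 82.8, 93.3, 83.3 and 58.9 CPM. The control samples were nearly equal, with a coefficient of variation of 2.98%, whereas the Z1C2Z samples spread by 18.4% and all lay above them, Z1C2Z-5 least so. Gclc thus rose by a log2 fold change of 0.75 (SE 0.13, edgeR adjusted p = 0.0299). The call was lost without Z1C2Z-1 (adjusted p = 0.0661), Z1C2Z-2 (0.0888), Z1C2Z-4 (0.0876), control-2 (0.0585) or control-5 (0.0778), with log2 fold changes of 0.67 to 0.76, and the adjusted p over all alternatives was between 3.09e-05 and 0.280. By Gclc the Z1C2Z samples ran from Z1C2Z-2 through Z1C2Z-4 and Z1C2Z-1 to Z1C2Z-5. This was also their order by the sum of hair shaft and matrix markers. In the controls numbered 1, 2, 3 and 5 that sum was 538, 2039, 3093 and 503 CPM. Gclc had 47.3, 48.5, 48.1 and 45.3 CPM in the same samples. The part of these markers in the rise was not tested.

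Gclm (Entrez 14630), for the modifier subunit of the same ligase, had 35.3, 43.96, 38.9 and 43.1 CPM in control and 44.6, 55.4, 49.0 and 45.2 CPM in Z1C2Z wounds. Every Z1C2Z sample lay above every control sample, but Z1C2Z-1 exceeded control-2 only narrowly, and the log2 fold change of 0.27 (SE 0.11) did not pass the test (edgeR adjusted p = 0.138). The ratio of Gclc to Gclm was 1.18 ± 0.131 in control and 1.64 ± 0.236 in Z1C2Z wounds (SD, n = 4). It overlapped between the groups, since control-1 had 1.34 and Z1C2Z-5 had 1.30.

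Further along the pathway, Gss, for glutathione synthetase, had 11.6 ± 1.14 and 15.2 ± 4.05 CPM (log2 fold change 0.39, edgeR adjusted p = 0.217), with 19.0 and 18.3 CPM in Z1C2Z-2 and Z1C2Z-4 but 12.5 and 10.98 CPM in the other treated samples. Gsr, for the reductase that regenerates glutathione, had 57.0 ± 8.62 and 49.1 ± 5.72 CPM (log2 fold change -0.22, adjusted p = 0.308). So the values of synthesis and recycling genes lay on opposite sides of 0, although neither of these differences passed the test.

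The glutathione S-transferases, which attach glutathione to electrophiles, gave no call among the 4 measured members. Gsta4 (Entrez 14860), whose enzyme clears the lipid peroxidation product 4-hydroxynonenal, had 67.5, 88.8, 20.5 and 117 CPM in control and 32.6, 12.2, 8.61 and 41.2 CPM in Z1C2Z wounds. Control-3 lay among the treated samples, and the spread within groups was wide (coefficient of variation 55.3% and 66.6%). Its log2 fold change of -1.63 (SE 0.60, edgeR adjusted p = 0.115) was the lowest of the 40 members but did not pass the test. Gsto1 (Entrez 14873), for an omega class transferase, had 78.7, 92.8, 84.3 and 87.0 CPM in control and 83.3, 67.8, 71.1 and 68.6 CPM in Z1C2Z wounds. Only Z1C2Z-1 reached the control range (log2 fold change -0.24, adjusted p = 0.144). Gstm1 and Gstp1, which have near-identical copies that may share reads, had log2 fold changes of 0.28 and -0.03.

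**Figure D2:**
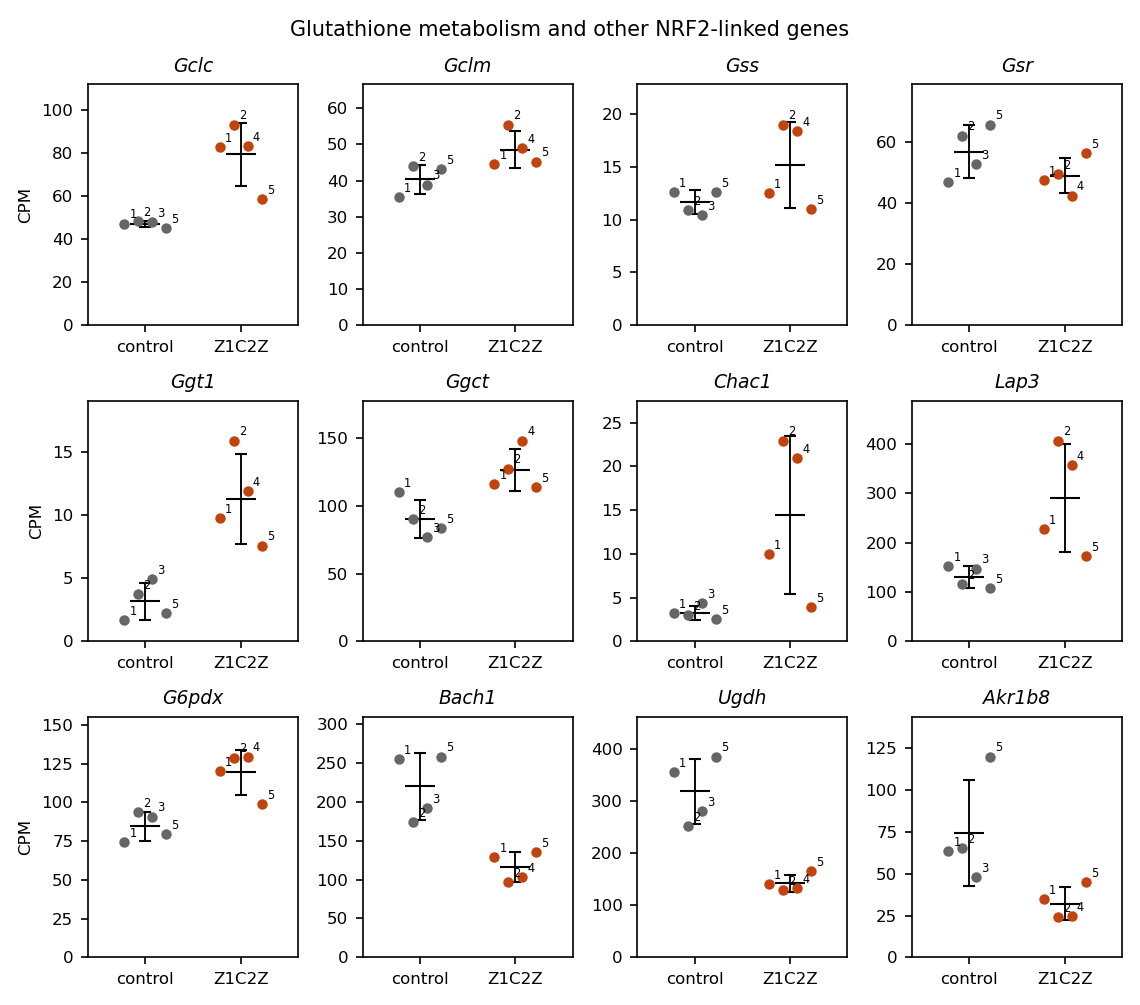
CPM (vertical axes, from 0) in each control and Z1C2Z sample for genes of glutathione synthesis, breakdown and NADPH supply and for Bach1, Ugdh and Akr1b8. Points carry the sample number, bars are the mean ± SD of 4 samples, and Gclc, Gclm, Ggt1, Ggct, Lap3 and G6pdx lie higher, and Bach1, Ugdh and Akr1b8 lower, in all 4 Z1C2Z samples.

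Of the glutathione metabolism pathway as annotated by KEGG in the deposited table, 61 of 68 genes were tested and 15 of them are members. Across the 61 genes, 5 rose and 0 fell in edgeR's test (8.20%, beside 8.13% of all genes tested), with a median log2 fold change of 0.03. At an unadjusted p under 0.05, 12 were higher and 9 lower, beside 28% of all genes in either direction. DESeq2 called 10 higher and 5 lower, beside 7.96% and 10.2% of all genes. Besides Gclc, the genes that rose were Chac1, Ggt1, Lap3 and G6pdx. Chac1 and Ggt1 encode enzymes that break glutathione down inside and outside the cell, and Lap3 encodes a leucine aminopeptidase that can cleave the dipeptide cysteinylglycine.

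Ggt1 had 1.71, 3.77, 4.93 and 2.25 CPM in control and 9.79, 15.9, 11.9 and 7.60 CPM in Z1C2Z wounds, without overlap (log2 fold change 1.83, edgeR adjusted p = 0.0303). Chac1 had 3.20, 2.97, 4.41 and 2.54 CPM in control and 10.01, 23.0, 21.0 and 3.96 CPM in Z1C2Z wounds, where Z1C2Z-5 lay in the control range (2.14, adjusted p = 0.0370). Lap3 rose from 131 ± 22.2 to 291 ± 109 CPM (log2 fold change 1.15, adjusted p = 0.0364). G6pdx, for the dehydrogenase that makes NADPH in the pentose phosphate pathway, rose from 84.5 ± 9.21 to 119 ± 14.4 CPM (0.50, adjusted p = 0.0395). As for Gclc, the highest treated samples were Z1C2Z-2 and Z1C2Z-4 for each of these 4 genes, and the lowest was Z1C2Z-5. Each of the 4 calls was lost without control-2, control-5 or any of the treated samples 1, 2 and 4. The adjusted p was then 0.0591, 0.0840, 0.0661, 0.0923 and 0.0899 for Ggt1, in that order, and 0.0833, 0.107, 0.0672, 0.107 and 0.107 for Chac1. It was 0.0827, 0.103, 0.0672, 0.103 and 0.107 for Lap3, and 0.0663, 0.110, 0.0794, 0.118 and 0.118 for G6pdx. The calls of Chac1 (0.0543) and G6pdx (0.0554) were also lost without control-1, and that of G6pdx without control-3 (0.0529). Over all alternatives the highest adjusted p of these genes was 0.281 to 0.345.

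Of the 6 thioredoxin system members 0 were called, and their median log2 fold change was -0.12. An unadjusted p under 0.05 was reached by 1 (28% of all genes), and DESeq2 called 1 (18.1% of all genes). Srxn1 (Entrez 76650), for sulfiredoxin, which repairs overoxidized peroxiredoxins and is a known NRF2 target, had 63.6, 70.9, 68.6 and 128 CPM in control wounds. The Z1C2Z samples had 51.9, 47.3, 43.7 and 51.5 CPM. All treated samples lay below all controls, and control-5 stood far above the other controls. The log2 fold change of -0.77 (SE 0.21) missed the threshold in edgeR's test (adjusted p = 0.0569).

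Txnip (Entrez 56338), for the protein that binds and inhibits thioredoxin, had the highest mean CPM of this group, a value that is not per length. It had 385, 419, 536 and 474 CPM in control and 402, 390, 453 and 372 CPM in Z1C2Z wounds, with overlapping groups (log2 fold change -0.17, edgeR adjusted p = 0.400). Thioredoxin and its reductase differed little in the cytosol (Txn1 -0.19, Txnrd1 0.03) and in mitochondria (Txn2 0.03, Txnrd2 -0.07), with adjusted p between 0.478 and 0.907. The sign for Txnrd2 turned with library totals alone (0.02).

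Superoxide and peroxide removal had the most genes without overlap between groups. Of its 16 members, 7 were lower in every Z1C2Z sample (8.82% of all genes tested were) and 0 were higher (8.45% were). Their median log2 fold change was -0.20 (-0.11 with library totals alone), and edgeR called 0. An unadjusted p under 0.05 was reached by 9, 2 higher and 7 lower, beside 28% of all genes in either direction. DESeq2 called 1 higher and 7 lower, beside 7.96% and 10.2% of all genes. The 3 glutathione peroxidases and peroxiredoxins of the endoplasmic reticulum, Gpx7, Gpx8 and Prdx4, which use the peroxide made during protein folding, all lay lower without overlap, with adjusted p between 0.0675 and 0.0863. So did 1 of the 2 members listed as secreted (Sod3, not Gpx3), against the 8.82% of all genes. It was also so for 2 of the 4 listed as mitochondrial (Sod2 and Prdx3, not Txn2 and Txnrd2), which is not a full list. This grouping by compartment was made with the values known and is a description.

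Gpx7 (Entrez 67305) had 38.0, 36.0, 40.8 and 58.0 CPM in control and 27.7, 29.1, 30.5 and 33.3 CPM in Z1C2Z wounds. Gpx8 (Entrez 69590) had 110, 88.6, 95.0 and 120 CPM in control and 78.7, 84.3, 70.9 and 83.0 CPM in Z1C2Z wounds. In both genes control-5 was the highest sample, and the gap between the groups was narrow beside the spread of the controls. The log2 fold changes were -0.52 (SE 0.15) and -0.38 (SE 0.11), with edgeR adjusted p of 0.0675 and 0.0682. Prdx4 had 74.2 ± 13.4 and 55.4 ± 5.92 CPM (log2 fold change -0.42, adjusted p = 0.0863). Fibroblast markers also lay lower in Z1C2Z wounds, with 6 of 6 under 0 (48.9% of all genes were) and 2 of them called. Their sums overlapped between the groups, at 54834 to 78015 CPM in control and 43054 to 60493 CPM in Z1C2Z samples. The part of these markers in the values of Gpx7, Gpx8 and Prdx4 was not tested.

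Sod3 (Entrez 20657), the extracellular dismutase, had 44.6, 62.1, 45.5 and 107 CPM in control and 30.5, 15.3, 13.8 and 42.7 CPM in Z1C2Z wounds. It was singled out after its values were seen, as a member with an over 2-fold difference. Z1C2Z-5 came close to the lowest controls and control-5 was far above them, and the log2 fold change of -1.34 (SE 0.41) did not pass edgeR's test (adjusted p = 0.0742). Sod2, the mitochondrial dismutase, had 91.5 ± 17.4 and 67.8 ± 3.68 CPM (-0.43, adjusted p = 0.0748), without overlap. Sod1, the cytosolic dismutase, overlapped between groups.

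Among the peroxide-reducing enzymes, Prdx1 (Entrez 18477) had the highest mean CPM, again not per length. It had 893, 649, 686 and 801 CPM in control and 656, 838, 737 and 707 CPM in Z1C2Z wounds, so the groups were interleaved (log2 fold change -0.04, edgeR adjusted p = 0.848, and 0.05 with library totals alone). Gpx3 had 598 ± 116 and 427 ± 81.2 CPM (-0.49, adjusted p = 0.107). Gpx1 and Prdx3, a mitochondrial peroxiredoxin, lay lower without overlap by small amounts, with log2 fold changes of -0.19 and -0.21 and adjusted p of 0.263 and 0.114. Prdx6, which also acts on phospholipid peroxides, had -0.37 (adjusted p = 0.203).

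Values above 0 were found for 6 of the 16 genes of this group. Gpx2 (Entrez 14776) had 1.88, 4.61, 3.28 and 2.65 CPM in control and 6.23, 9.17, 9.32 and 3.49 CPM in Z1C2Z wounds, and it too was singled out after its values were seen, as the highest log2 fold change of the 40 (1.18, SE 0.36, edgeR adjusted p = 0.0728). Z1C2Z-5 lay within the control range. Prdx2 had 142 ± 11.2 and 181 ± 36.6 CPM (0.35, adjusted p = 0.156), with Z1C2Z-2 and Z1C2Z-4 highest, and shares 8.31% of its exon bases with Rnaseh2a on the opposite strand. Sod1, Gpx4, Cat and Prdx5 had log2 fold changes between 0.06 and 0.10, and 28.3% of the exon bases of Prdx5 lie opposite Trmt112. Whether counting used strand is not given in the sources used here. Gpx4 and Prdx5 turned below 0 when Z1C2Z-2 was left out.

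**Figure D3:**
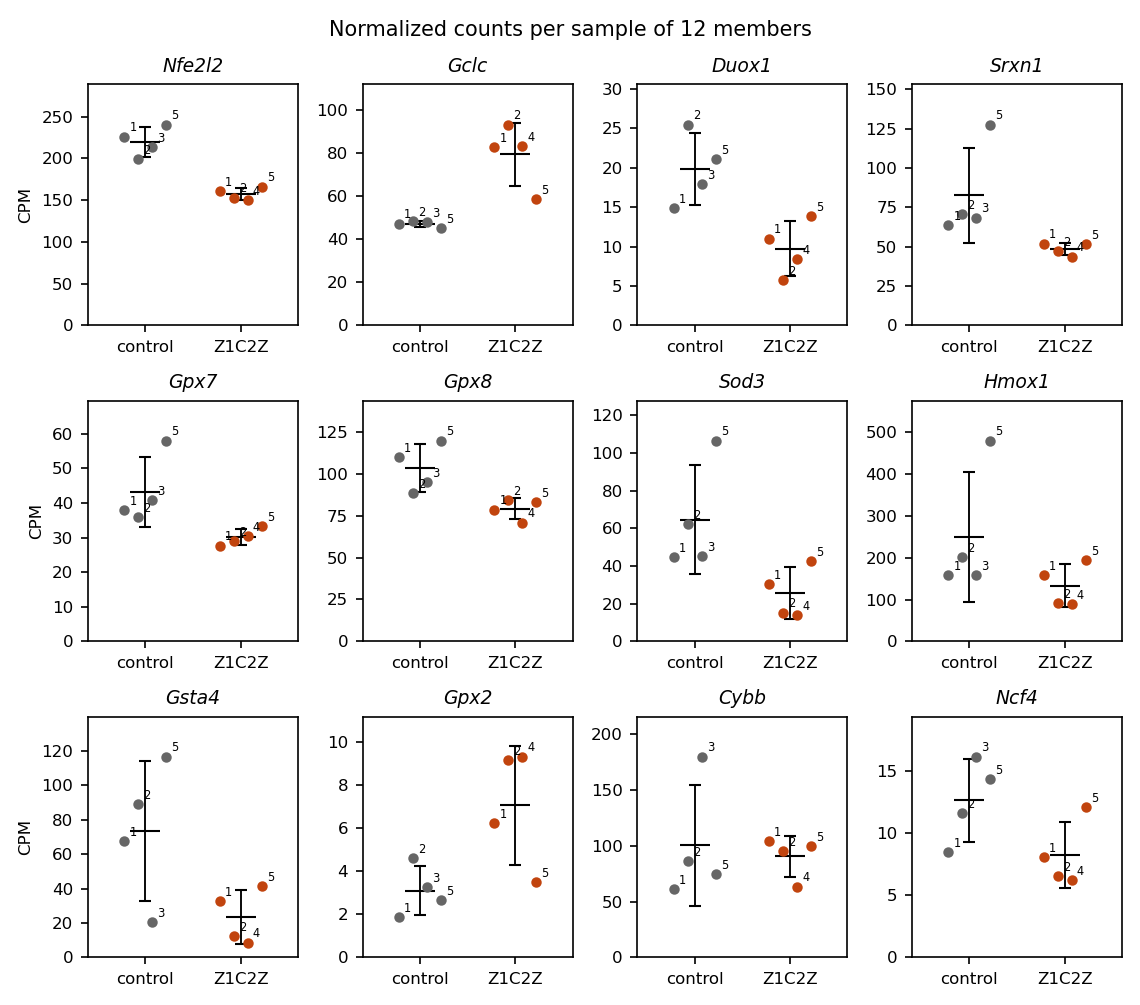
CPM (vertical axes, from 0) in each control and Z1C2Z sample for 12 members, with the sample number at each point and the mean ± SD of 4 samples as bars. Nfe2l2, Gclc and Duox1 show no overlap between groups, control-5 stands apart for Srxn1, Sod3 and Hmox1, and Cybb overlaps with control-3 highest.

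Of 6 NADPH oxidase members, which make oxidants, 1 fell and 0 rose, beside 3.85% and 4.28% of all genes tested. All 6 log2 fold changes were under 0, where 48.9% of all genes were. The median of the 6 was -0.37, and -0.28 with library totals alone. Without control-3, 5 were under 0, and without both Z1C2Z-2 and Z1C2Z-4, 4 were. Duox1 (Entrez 99439), for the dual oxidase of keratinocytes, had 14.9, 25.4, 18.0 and 21.1 CPM in control wounds. The Z1C2Z samples had 11, 5.78, 8.36 and 13.8 CPM. The highest treated sample, Z1C2Z-5, lay just under the lowest control, control-1. The log2 fold change was -1.03 (SE 0.27, edgeR adjusted p = 0.0484). The call was lost with library totals alone (-0.94, adjusted p = 0.0592) and when any sample other than control-1 or Z1C2Z-5 was left out. The adjusted p was then 0.106 without control-2, 0.0705 without control-3, 0.123 without control-5, 0.0830 without Z1C2Z-1, 0.112 without Z1C2Z-2 and 0.136 without Z1C2Z-4, and between 0.00248 and 0.332 over all alternatives. The maturation factor Duoxa1, which the dual oxidase needs to leave the endoplasmic reticulum, had a log2 fold change of -0.40 (adjusted p = 0.0821).

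The phagocyte oxidase is built from the membrane subunits encoded by Cybb and Cyba and the cytosolic subunits encoded by Ncf1 and Ncf4. Ncf4 (Entrez 17972) had 8.49, 11.6, 16.2 and 14.4 CPM in control and 8.12, 6.55, 6.25 and 12.1 CPM in Z1C2Z wounds. Z1C2Z-5 lay among the controls (log2 fold change -0.62, SE 0.26, edgeR adjusted p = 0.157). Cybb (Entrez 13058) had 61.0, 86.1, 180 and 74.8 CPM in control and 104, 95.0, 63.4 and 99.4 CPM in Z1C2Z wounds. Control-3 was the highest sample, and 3 of the treated samples exceeded all other controls. The log2 fold change of -0.15 (SE 0.32, adjusted p = 0.792) became 0.29 without control-3. Ncf1 and Cyba had -0.43 and -0.32, with adjusted p of 0.206 and 0.224.

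Leukocyte markers also mostly lay lower in the treated wounds, with sums that overlapped between the groups. Summed neutrophil markers (10 of 11 tested, led by S100a9 and S100a8) lay between 612 and 1566 CPM in control and between 178 and 721 CPM in Z1C2Z samples, with 9 of 10 log2 fold changes under 0 and 0 called (4 at an unadjusted p under 0.05). Macrophage and monocyte markers (10 genes, led by Lyz2 and Mrc1) lay between 2598 and 3196 and between 1547 and 2659 CPM, with 10 of 10 under 0 and 0 called (4 at an unadjusted p under 0.05). Z1C2Z-2 and Z1C2Z-4 were the lowest treated pair for 5 of the 6 NADPH oxidase members, beside 31.7% of all genes tested. They were so for 10 of 10 macrophage, 6 of 10 neutrophil, 5 of 6 fibroblast and 5 of 5 endothelial markers. For keratinocyte markers it was 1 of 8, for muscle 2 of 8 and for sebocytes 1 of 6, and 0 for hair, adipocyte and erythroid markers. The part of cell numbers in the oxidase values was not tested. Nox4, for an oxidase of fibroblasts and vessel cells, had 38.7 ± 7.98 and 33.2 ± 7.66 CPM (log2 fold change -0.22, edgeR adjusted p = 0.487). Of 9 further NADPH oxidase genes tested (of 12 listed), 0 were called, and Duoxa1, given above, had the smallest p. An unadjusted p under 0.05 was reached by 1 higher and 3 lower genes, beside 28% of all genes. Of the 9 log2 fold changes, 4 were over 0 and 5 under 0. The highest value was that of Nox1, singled out after its values were seen, at 0.505 ± 0.219 CPM in control and 1.00 ± 0.346 CPM in Z1C2Z wounds (log2 fold change 1.00, adjusted p = 0.156), with overlapping groups.

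**Figure D4:**
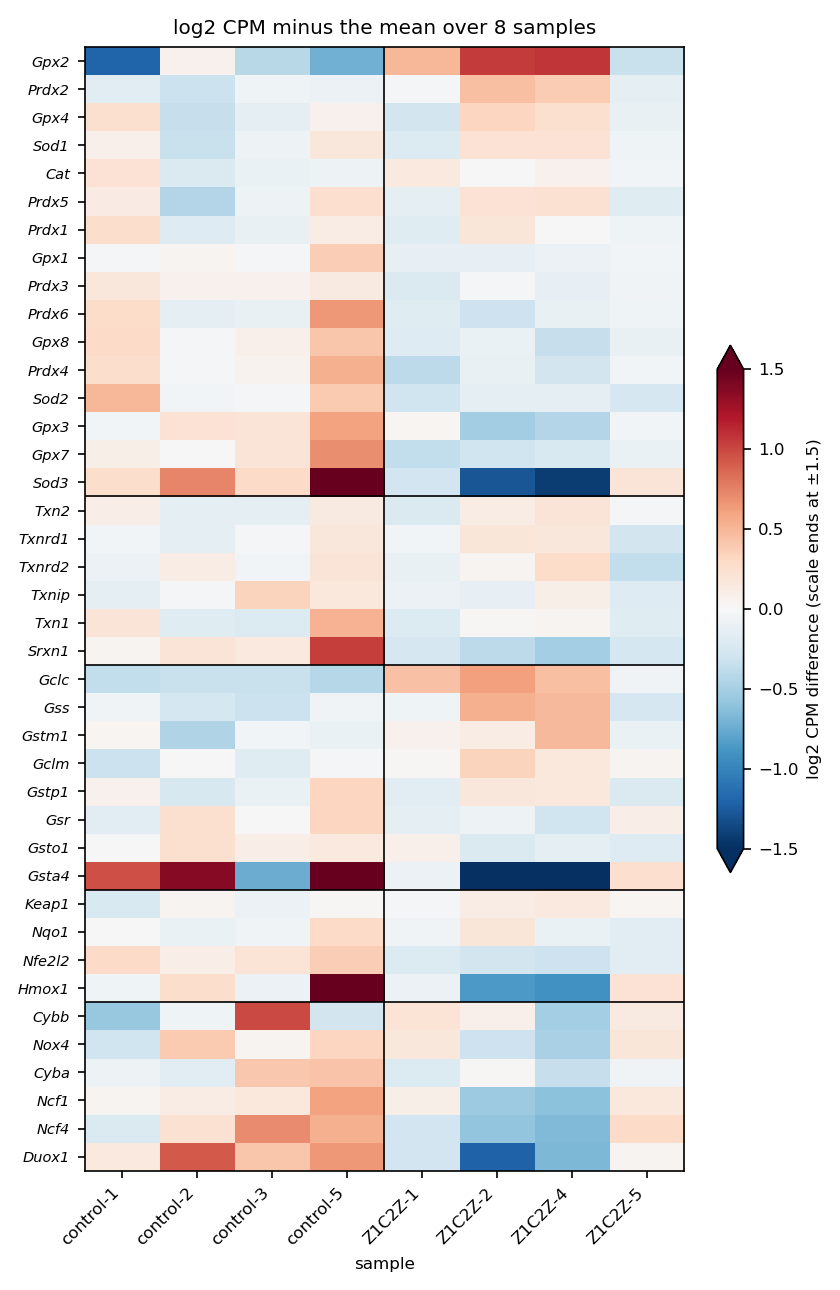
Log2 CPM of each member (rows, grouped by role) in each sample (columns), minus the gene's mean over the 8 samples, with red above and blue below the mean and the colour scale ending at ±1.5. Nfe2l2 and Gclc split at the line between the groups, while Sod3, Hmox1 and Gsta4 are lowest in Z1C2Z-2 and Z1C2Z-4 and highest in control-5.

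Beyond the members, a wider list of 87 antioxidant and NRF2-related genes, of which 81 were tested, gave 4 that rose and 3 that fell (8.64%, beside 8.13% of all genes tested), with a median log2 fold change of 0.03. Of the regulators, Bach1, for the repressor that competes with NRF2 at antioxidant response elements, had 255, 174, 192 and 258 CPM in control and 128, 96.6, 103 and 136 CPM in Z1C2Z wounds. It fell by 0.92 on the log2 scale (SE 0.17, edgeR adjusted p = 0.0299), without overlap. The call was lost without Z1C2Z-1 (adjusted p = 0.0661), Z1C2Z-2 (0.0888), Z1C2Z-4 (0.0876) or control-5 (0.0778), and the adjusted p over all alternatives was between 1.34e-05 and 0.280. The ratio of Nfe2l2 to Bach1 was 1.02 ± 0.128 in control and 1.38 ± 0.171 in Z1C2Z wounds (SD, n = 4). So the transcripts of the activator and of its competitor were both lower, the latter more so, and this ratio did not overlap between groups.

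Of the further NRF2 targets, 1 rose and 2 fell among 19 tested, beside 4.28% and 3.85% of all genes tested. Ugdh, for the dehydrogenase that makes UDP-glucuronate, fell from 318 ± 62.0 to 142 ± 16.5 CPM (log2 fold change -1.16, edgeR adjusted p = 0.0280), and Akr1b8, for an aldo-keto reductase, from 74.4 ± 31.4 to 32.1 ± 9.82 CPM (-1.21, adjusted p = 0.0442). The gene that rose was G6pdx, given above. Of 15 further thiol reductase genes, Sesn1, for a sestrin, rose from 58.7 ± 7.53 to 96.6 ± 8.27 CPM (0.72, adjusted p = 0.0299), without overlap. The calls of Ugdh, Sesn1 and Akr1b8 were lost without control-5 (edgeR adjusted p = 0.0618, 0.0675 and 0.100) and without Z1C2Z-1 (0.0661, 0.0661 and 0.0826). They were also lost without Z1C2Z-2 (0.0888, 0.0888 and 0.130) or Z1C2Z-4 (0.0876, 0.0876 and 0.127), and that of Akr1b8 without control-2 (0.0773). Over all alternatives their highest adjusted p was 0.280, 0.280 and 0.366. Of 28 further glutathione genes tested, 2 rose, Ggt1 and Chac1, and 0 fell, beside the same shares of all genes. At an unadjusted p under 0.05, 6 were higher and 2 lower, beside 28% of all genes in either direction. For further peroxide removal only Ccs, for the copper chaperone of the cytosolic dismutase, was tested (0.06, adjusted p = 0.823).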

How the data were processed

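Total RNA of wound skin was depleted of ribosomal RNA and sequenced from random-primed libraries. The values deposited by the authors are raw counts per gene. The aligner, counting program, genome build, annotation and strand setting are not given in the sources used here. Samples were grouped by their titles, and 0 columns of per-sample values were left unused. The test was edgeR 4.0.16 (with limma 3.58.1, under R 4.3.3), by these steps: filterByExpr, TMM scaling, the quasi-likelihood test across 15147 genes without covariates, and Benjamini-Hochberg adjustment, with calls at an adjusted p under 0.05. Standard errors came from the quasi-likelihood F statistic. The fit was tested on simulated counts. Alternatives were DESeq2 1.42.0, RLE factors, library totals alone, a block for the sample number, a minimum of 10 counts per sample or no filter, each sample left out, and, chosen after seeing the data, Z1C2Z-2 and Z1C2Z-4 left out together.

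The members and lists were chosen with earlier results of these data known. Values per sample were given for called members and, in each role group, for the 2 with the smallest p and the member with the highest mean CPM, and other members by group values. Of further lists up to 6 called genes were named, or the 2 with the smallest p where none was called, and of marker lists the 2 most abundant genes. Of the genes this rule names, 1 is not reported here. Exon lengths and overlaps came from GENCODE vM21 matched by symbol. Libraries of a group differed by at least 21.8 chi-square per degree of freedom, so none was counted as a repeat. Totals of 28856790 to 38974888 counts set the counting error, which does not cover differences between animals.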

Additional observations from a re-analysis of the deposited data

Results flagged for a closer look

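Control-5 stood far above the other control samples for 3 members, by the gap to the next sample relative to the range of the group. Gpx1 had 293 CPM in control-5, where the other controls had 223 to 235 CPM. Srxn1 had 128 CPM in control-5, where the others had 63.6 to 70.9 CPM. Hmox1 had 480 CPM in control-5, where the others had 158 to 202 CPM. Such a gap arises by chance in about 5% of groups of 4, and 80 groups were examined (40 members in both groups), of which these 3 stood out. Without control-5 the log2 fold change went from -0.19 to -0.087 for Gpx1, from -0.77 to -0.48 for Srxn1 and from -0.91 to -0.37 for Hmox1.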

How the results depend on the processing

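Of the 40 members, 29 kept their direction in all 15 alternatives and 11 did not. With DESeq2, 2 members were called higher and 10 lower, 10 and 8 of the wider list, 10 and 5 of the KEGG pathway, and 1206 and 1539 of all genes. With library totals alone, which moved the median of all genes from 0.01 to 0.10, 1 member was lower, 8 genes of the wider list and 9 of the pathway were higher, and 385 of all genes were lower. Under it Prdx1 (0.049), Txnrd2 (0.023), Gstp1 (0.065) and Nqo1 (0.026) turned above 0. RLE factors and the other filters on low counts gave the same number of called members. Leaving out 1 sample gave 0 to 2 higher and 0 to 4 lower members, 0 to 8 and 0 to 5 genes of the wider list, 0 to 9 and 0 to 1 of the pathway, and 0 to 886 and 0 to 868 of all genes. The log2 fold change of some members then ran across 0, for Sod1 (-0.0082 to 0.17), Gpx4 (-0.0013 to 0.20), Prdx1 (-0.11 to 0.040), Prdx5 (-0.063 to 0.16), Txn2 (-0.037 to 0.11), Txnrd1 (-0.032 to 0.11), Txnrd2 (-0.19 to 0.030), Gstp1 (-0.11 to 0.087), Nqo1 (-0.15 to 0.026) and Cybb (-0.33 to 0.29). Leaving out control-5 or any of the treated samples 1, 2 and 4 left 0 genes called in edgeR's test, with 3, 5, 2 and 2 members higher and 9, 12, 9 and 10 lower at an unadjusted p under 0.05, beside 1592, 2033, 1522 and 1443 genes higher and 1631, 2175, 1615 and 1657 lower of all 15279, 15247, 15237 and 15238 tested. Without control-2, 25 genes were higher and 98 lower. Without both Z1C2Z-2 and Z1C2Z-4, an alternative chosen after seeing the data, 0 genes of any list were called (1 member higher and 6 lower at an unadjusted p under 0.05, beside 973 and 1007 of all 15338 tested), and Sod1 (-0.11), Gpx4 (-0.16), Prdx5 (-0.15), Txn2 (-0.12), Txnrd1 (-0.15), Cybb (0.020) and Nox4 (0.036) changed sign. The cause of these changes was not tested, beyond the fewer samples of the fits that leave some out.

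Sample numbers 1, 2 and 5 occur in both groups. For samples sharing a number, deviations from the group means correlated at -0.10, -0.06 and 0.32. The numbers were not taken as a pairing, but these values cannot tell whether such samples shared a mouse. With the number as a block, 0 members were higher and 1 lower (Gsta4), 1 gene of the wider list was higher, 1 gene of the pathway was higher and 1 lower, and 301 and 253 of all genes were called. Gclc had 0.71 (adjusted p = 0.0775), Nfe2l2 -0.47 (0.165) and Duox1 -1.05 (0.181) in that edgeR fit, and Gpx4 (-0.0070), Prdx5 (-0.015), Txn2 (-0.080), Txnrd1 (-0.035) and Cybb (0.44) changed sign.

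The lowest count behind any member was 53, and how depth and sample number limit the calls was not compared.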
